A study of Mus musculus with 12 samples.

Results

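Polysome-associated mRNA was set against total mRNA of the same macrophages after 4 h with IL4, using the 6 IL4 libraries of a series of 12. The members were chosen by their labels alone: 3 libraries of total mRNA and 3 of polysome-associated mRNA, joined into pairs by the replicate number that the labels give. The cells were macrophages grown from the bone marrow of naïve female FVB mice and polarized with IL4 at 40 ng/mL. The labels name no genotype other than the strain, no age and no untreated cells. The other 6 libraries came from macrophages of the same kind after 4 h with IFNG (200 units/mL), and they enter only where the IL4 and IFNG values are set against each other. About 10% of each cell population was lysed for total mRNA. The rest was spread over a sucrose gradient of 5 to 50%, and the messages that carried more than 3 ribosomes were pooled. The labels do not say whether the numbered replicates were separate animals or cultures, so a p-value here refers to the spread among these libraries and that spread may be only technical.

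IL4 acts through its receptor and the factor STAT6 to drive alternative activation of macrophages, a state known for Arg1, Retnla, Mrc1 and Chil3. How much protein a message yields depends in part on how many ribosomes it carries, which polysome profiling reads by how far the message sediments. A short coding region has room for few ribosomes, but coding length was not analysed here. Several classes of message are known for control at this step. Messages of ribosomal proteins and of several translation factors begin with C and a run of pyrimidines, the terminal oligopyrimidine (TOP) motif, through which mTOR signalling and LARP1 act. Ferritin messages are held off ribosomes by iron regulatory proteins when iron is scarce. Atf4, a stress transcription factor, has upstream reading frames that restrict its translation in unstressed cells.

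The TOP motif at the annotated start is shown for 6 messages from RefSeq (GRCm38.p6, the assembly that mm10 stands for). It is shown since most of the tested ribosomal protein messages were lower on polysomes. Each run is 26 bases, 13 before the annotated start and 13 from it, and capitals mark the C at the start with the pyrimidines that follow without a break. The 6 were chosen after their values were seen, to include messages that were lower, not called and higher on polysomes, so their mix gives no shares. Most listed genes with the motif at the annotated start encode ribosomal proteins, and most tested ribosomal protein messages were lower. Of those with the motif only Nap1l1 was higher, and no direction is read from the motif.
Rpl15: gggagaaagccttCTTCCTTTCCTCT
Rpl35a: ggggcttgccttcCTCTTTCCgccat
Rps21: ccgaggacccgccCTCCTgcccaata
Eif3f: tgttctaggctctCTCTCTTTCTCgg
Rps6: gcggaagtcgggcCTCTTTTTCgtga
Nap1l1: cgggctctcgggtCTTTTTTagcgcc
Rpl15 lies at chr14:18270974-18270999 on the minus strand, Rpl35a at chr16:33056469-33056494 on the plus strand, and Rps21 at chr2:180257366-180257391 on the plus strand. Eif3f lies at chr7:108934402-108934427 on the plus strand, Rps6 at chr4:86857355-86857380 on the minus strand, and Nap1l1 at chr10:111473214-111473239 on the plus strand. Rpl15 (log2 fold change of polysome over total -2.70), Rps21 (-2.74), Rpl35a (-2.41) and Eif3f (-2.16) were lower on polysomes, Rps6 (-0.69) passed no threshold, and Nap1l1 (1.24) was higher. A C at the start with at least 4 pyrimidines after it, read on the strand of the gene, was sought in each window. It stood in 13 of the 55 ribosomal protein genes with a window (23.6%), where any window of a gene could match. Of all 32851 single windows 823 (2.51%) had it, a count by window and not by gene, so these shares are not of the same kind. Only 74.3% of the 74 tested ribosomal protein genes and 70% of the 20 tested genes of the list of translation factors with TOP ends had a window. That is under the 80% needed, so any comparison of fold changes by start letters is void and none is given.

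The IL4 total libraries held 12348819 to 16603339 counts and the polysome libraries 2563955 to 5546605, so 3 counts stood for 0.204 to 0.241 CPM in total mRNA and, in polysome replicates 1, 2 and 3, for 0.432, 1.13 and 1.20 CPM. Levels are CPM (counts scaled to a common library total after TMM), and values in a row are given for replicates 1, 2 and 3. CPM are shares of a library, so higher or lower on polysomes means a larger or smaller share than in total mRNA, and not an amount per cell. Lars2, the mitochondrial leucyl-tRNA synthetase gene, held 0.903 to 1.47% of the counts in total mRNA and 5.15 to 18.1% on polysomes. Of the macrophage markers 14 of 15 were tested, with summed levels of 12174 to 22314 CPM in total mRNA and 11326 to 12708 CPM on polysomes. Of these, 5 (35.7%) were called higher and 4 (28.6%) lower on polysomes, against 17.3% and 22.9% of all features. Their median log2 fold change was 0.22 and the mean -0.18. The 8 lists for other lineages (granulocytes, dendritic cells, lymphocytes of both kinds, stroma, platelet and red cell precursors, mast cells) summed to at most 22.0 CPM per list in total mRNA and 12.1 CPM on polysomes. Ly6g, Elane and Cxcr2 (neutrophil), Flt3, Clec9a, Ccr7 and Dpp4 (dendritic cell), Cd3e, Cd3g, Cd8a and Ncr1 (T and NK cell), Ms4a1 and Pax5 (B cell), and Cpa3, Mcpt4, Fcer1a and Ms4a2 (mast cell) had no count in any IL4 library. In such bulk samples fewer cells of a type and less RNA per cell cannot be told apart.

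Of 9898 features tested, 1717 (17.3%) were higher and 2266 (22.9%) lower on polysomes than in total mRNA of IL4 macrophages (edgeR's quasi-likelihood test with the pair as a block, Benjamini-Hochberg adjusted p under 0.05), so 3983 (40.2%) were called. Among the messages that lost most were ferritin, ribosomal protein, thymosin and some respiratory chain messages. Those that gained most included Hnrnpa2b1, Tra2b and Snrpd3 of the splicing machinery, the ubiquitin ligase gene Herc2, and Lars2. The changes downward were larger: a fold above 4 was fitted for 912 lower and 137 higher features, and a fold above 16 for 66 and 2. Those 2, Cd300ld4_Cd300ld5 and Cd300ld3_Cd300ld4_Cd300ld5, are joined features that share the same 50 polysome counts against 7 and 9 in total mRNA. The median log2 fold change over all features was -0.01, and the 5th and 95th percentiles were -2.48 and 1.63. The polysome and total libraries did not overlap for 2283 features that were higher (23.1%) and 2680 that were lower (27.1%). The counts fell most when pair 2 was left out, to 277 features called higher and 882 lower, and the cause of that drop was not tested.

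**Figure D1:**
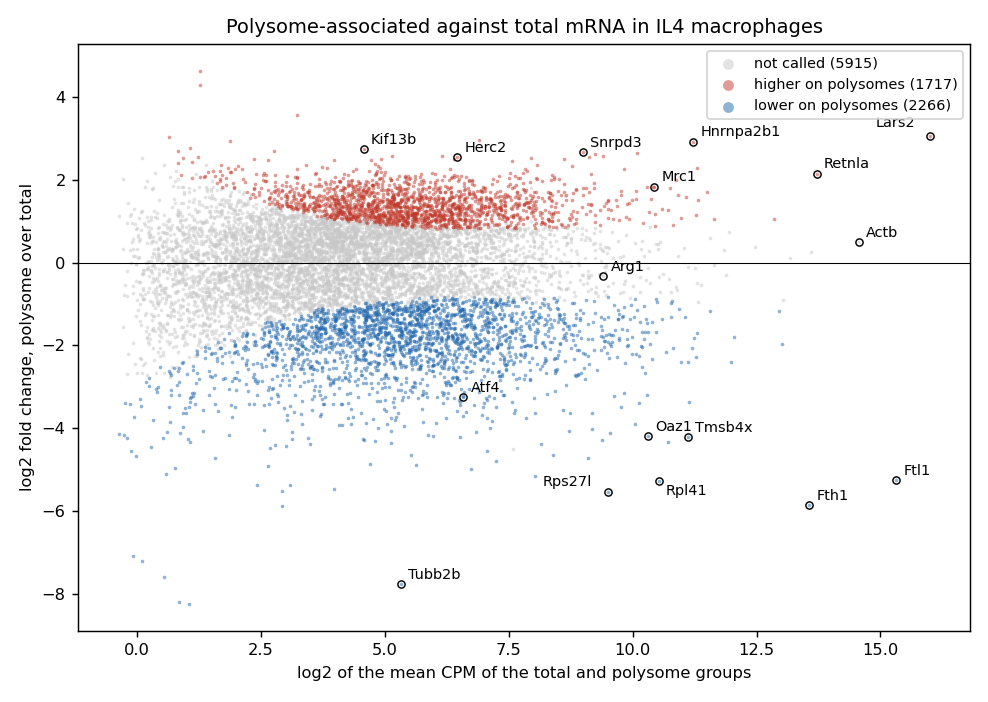
Log2 fold change of polysome over total mRNA against the log2 of the mean CPM of both groups, 1 point per feature, in the 6 IL4 libraries. Red points are the 1717 features called higher, blue points the 2266 called lower and grey points the 5915 not called. Fth1 and Ftl1 sit at high level far below 0 and Lars2 at the highest level above 0.

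Messages of the cytosolic ribosome were under-represented on polysomes as a body. Of 43 tested proteins of the large subunit, 36 were lower and 0 higher (22.9% of all features were called lower), with a median log2 fold change of -1.75. Of 31 proteins of the small subunit, 27 were lower and 0 higher, with a median of -1.83. The medians lay between -1.63 and -2.08 in the 3 pairs for the large subunit and between -1.59 and -2.06 for the small subunit. Rpl41, which encodes a protein of the large subunit (chromosome 10, 128548110 to 128549168), measured 2587, 3659 and 2390 CPM in total mRNA and 101, 72.0 and 54.2 CPM on polysomes. All 3 polysome libraries lay far below all 3 total libraries (log2 fold change -5.27, SE 0.41, edgeR adjusted p = 1.75e-07). Rps27l, a relative of Rps27 (chromosome 9, 66944624 to 66949522), fell from 1498, 1540 and 1202 CPM to 39.4, 30.5 and 23.3 CPM (log2 fold change -5.53, SE 0.40, edgeR adjusted p = 1.23e-07). Rps29 measured 1196, 2002 and 1027 CPM in total mRNA against 79.1, 109.7 and 55.4 CPM (log2 fold change -4.10), again without overlap. Rplp0, the base of the ribosomal stalk, was at 4827, 4471 and 2994 CPM and at 444, 419 and 323 CPM (log2 fold change -3.36). Rpl39 (log2 fold change -3.56) and Rps2 (log2 fold change -3.95) were also lower without overlap.

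The members did not move as 1 block. The 11 members that were not called lay between -1.62 (Rpl29) and 0.60 (Rpl4), among them Rpl6 (0.33), Rps4x (0.03), Rps9 (0.35) and Rps6 (-0.69). A further 8 listed ribosomal protein genes were read only inside features that join them with another symbol, and 7 of those features were lower. Ribosomal protein genes have many near-identical pseudogene copies, so their counts are uncertain where reads were split between copies. Without pair 2, 27 proteins of the large subunit and 19 of the small subunit were called lower.

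The genes listed for TOP ends beside the ribosomal proteins, mostly translation factors, split into both directions. At the annotated start 3 of the 14 with a window (21.4%) had a C followed by at least 4 pyrimidines. Of 20 tested genes of this list, 7 (35%) were lower and 4 (20%) higher, against 22.9% and 17.3% of all features. The median log2 fold change was -0.20. Eef1a1, which brings aminoacyl-tRNA to the ribosome (chromosome 9, 78478453 to 78481724), measured 1375, 2132 and 2611 CPM in total mRNA and 2535, 4579 and 5924 CPM on polysomes. It was higher within each pair, although replicate 1 on polysomes lay below replicate 3 of total mRNA (log2 fold change 1.06, SE 0.34, edgeR adjusted p = 0.0181). Eef1b2, its nucleotide exchange factor, went the other way, with 223, 284 and 235 CPM in total mRNA and 61.1, 69.4 and 48.6 CPM on polysomes (log2 fold change -2.05, SE 0.33). Tpt1, the translationally controlled tumour protein, fell from 310, 428 and 378 CPM to 86.1, 98.4 and 51.4 CPM (log2 fold change -2.27, SE 0.35). The other 3 that were higher, Npm1 (1.35), Nap1l1 (1.24) and Vim (0.97), do not encode translation factors. Without pair 2 the count higher was 0 and the count lower 4. With 1 library left out and no pairing, the count higher was 0 without replicate 1 of total mRNA or replicate 2 on polysomes, 1 without replicate 2 of total mRNA and 2 without replicate 3 on polysomes.

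Among 28 other initiation factors, 11 (39.3%) were lower and 5 (17.9%) higher, against 22.9% and 17.3% of all features (median -0.41). The 5 that were higher were Eif4g3 (1.82), Eif3a (1.55), Eif2b3 (1.37), Eif3c (1.36) and Eif4g1 (1.21). Of these, Eif4g1 and Eif4g3 encode scaffolds of the cap-binding complex and Eif3a and Eif3c core subunits of eIF3. Eif3i, another subunit of the same eIF3 complex, measured 395, 324 and 251 CPM in total mRNA and 90.5, 70.1 and 51.0 CPM on polysomes (log2 fold change -2.21, SE 0.33, edgeR adjusted p = 6.22e-05). Eif5a, which helps ribosomes through proline stretches, fell from 4868, 3571 and 2807 CPM to 774, 855 and 511 CPM (log2 fold change -2.39), and Eif4h, a helper of the helicase eIF4A, was also lower (-2.18). Neither cap-binding Eif4e (-0.30) nor the helicase gene Eif4a1 (-0.27) passed the threshold. Without pair 2 the counts were 5 lower and 1 higher.

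Respiratory chain messages were mostly low on polysomes too. Of 33 subunits of complex I, 27 (81.8%) were lower and 1, Ndufs1 (1.26), higher, with a median of -1.54. Of all features 22.9% were lower and 17.3% higher. Of 37 subunits of complexes II to IV and the ATP synthase, 26 (70.3%) were lower and 1, Sdhc (1.27), higher, with a median of -1.38. Atp5e, the epsilon subunit of the ATP synthase, measured 682, 1021 and 666 CPM in total mRNA and 37.0, 62.2 and 43.0 CPM on polysomes (log2 fold change -4.06, SE 0.36, edgeR adjusted p = 3.92e-07). Cox8a of complex IV fell from 1195, 1384 and 663 CPM to 83.8, 98.4 and 71.5 CPM (log2 fold change -3.62). Uqcr10 of complex III fell from 434, 598 and 425 CPM to 30.6, 46.0 and 40.6 CPM (log2 fold change -3.64). In all 3 the groups stood well apart, as they did for Ndufc1 (-3.32), Ndufv3 (-3.20) and Ndufa3 (-2.69) of complex I. The catalytic ATP synthase subunits Atp5a1 (0.10) and Atp5b (-0.43) were not called. Without pair 2 the counts lower were 16 for complex I and 15 for the others.

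**Figure D2:**
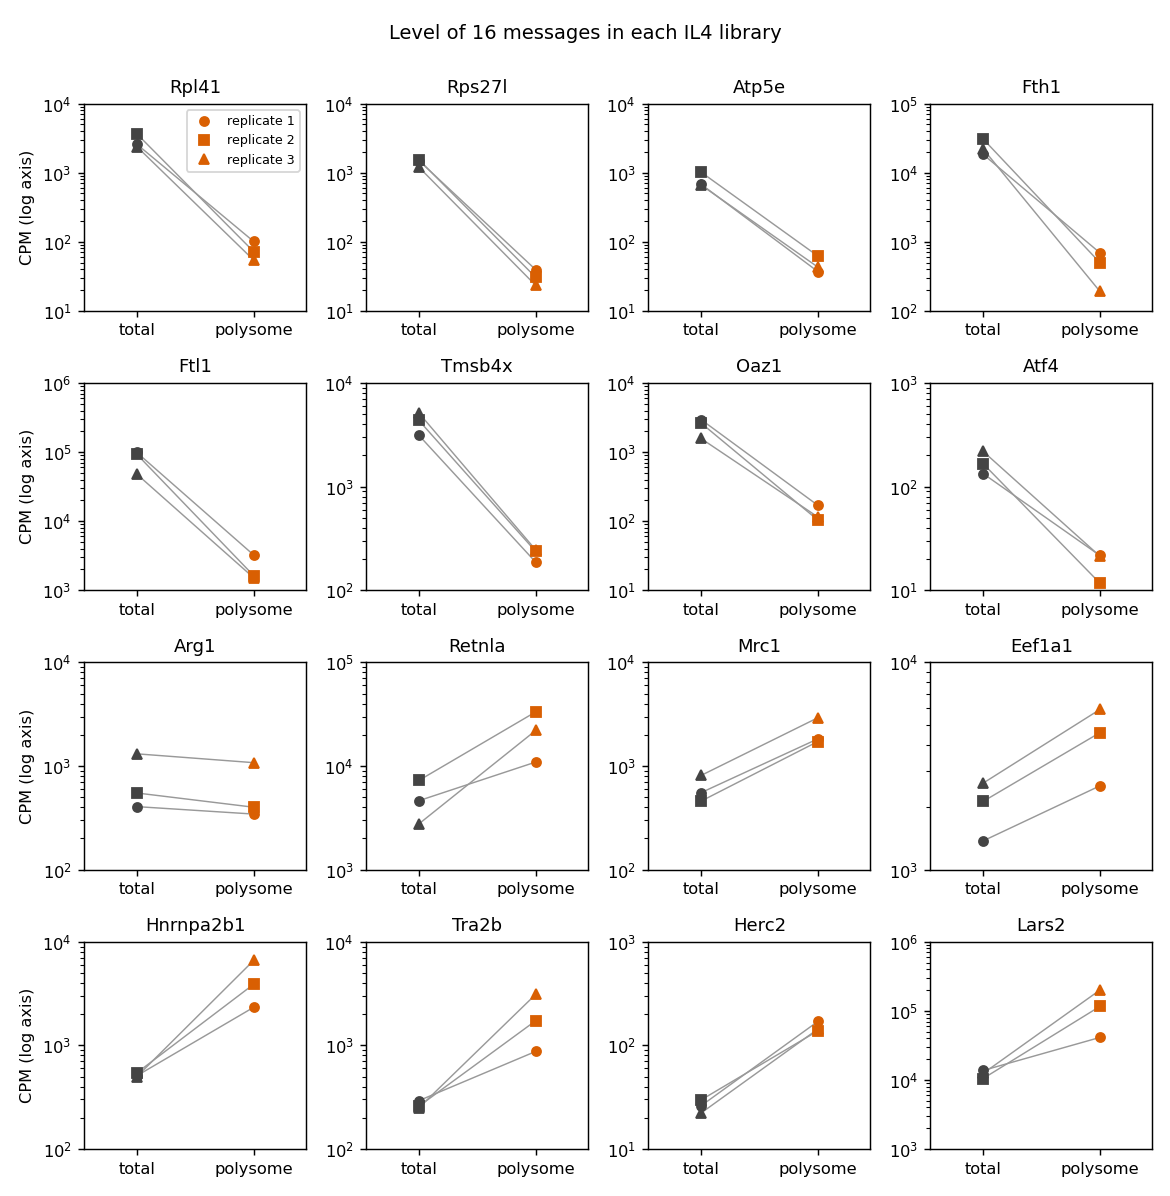
CPM on a log axis of 16 messages in each IL4 library, with total mRNA on the left and polysome-associated mRNA on the right of each panel. Lines join the libraries of 1 replicate number. Rpl41, Rps27l, Atp5e, Fth1, Ftl1, Tmsb4x, Oaz1 and Atf4 fall in all 3 pairs, Arg1 was not called, and the 7 after it rise in all 3 pairs.

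The proteasome and the machinery of the endoplasmic reticulum were mixed, with more members lower. Of 34 proteasome subunits, 17 (50%) were lower and 2 (5.88%), Psmd1 (1.00) and Psmd2 (0.93), higher (median -0.80). Of all features 22.9% were lower and 17.3% higher. Psmb9, a catalytic subunit of the immunoproteasome, measured 162, 162 and 84.1 CPM in total mRNA and 36.6, 48.6 and 6.83 CPM on polysomes (log2 fold change -2.41, SE 0.39, edgeR adjusted p = 0.000115), and replicate 3 was lowest in both groups. Psmd8 of the lid (-2.29) and the ATPase gene Psmc4 (-2.29) were lower without overlap as well. Of 37 genes for targeting and folding at the endoplasmic reticulum, 12 (32.4%) were lower and 5 (13.5%) higher (median -0.39). Srp9 and Srp14 encode the pair of proteins that binds the Alu domain of the signal recognition particle. Srp9 measured 40.5, 35.2 and 30.8 CPM in total mRNA and 3.60, 1.89 and 2.41 CPM on polysomes (log2 fold change -3.74, SE 0.47). Srp14 fell from 142, 233 and 175 CPM to 18.5, 43.0 and 12.1 CPM (log2 fold change -3.05). Ssr4 was lower as well (-2.30). The 5 higher genes, named after their values were seen, were Rpn1 (1.57), Stt3a (1.54), Pdia4 (1.39), Pdia3 (1.22) and Sec61a1 (0.98). Their share was below that of all features. Without pair 2, 8 proteasome genes and 7 of these reticulum genes were lower and 0 of either higher. No proteasome gene was higher without pair 1 and 5 were without pair 3, where 9 reticulum genes were higher. Unpaired, 3 reticulum genes were higher without replicate 2 of total mRNA or replicate 3 on polysomes.

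Both ferritin messages were among the features with the largest losses. Ftl1, the light chain (chromosome 7, 45457944 to 45459886), measured 98712, 92833 and 47932 CPM in total mRNA and 3234, 1626 and 1514 CPM on polysomes. Every polysome library lay far below every total library (log2 fold change -5.25, SE 0.46, edgeR adjusted p = 3.92e-07). Fth1, the heavy chain with the ferroxidase activity (chromosome 19, 9980600 to 9985111), measured 18489, 30852 and 22116 CPM in total mRNA and 692, 498 and 191 CPM on polysomes (log2 fold change -5.85, SE 0.50, edgeR adjusted p = 3.14e-07). The transferrin receptor Tfrc, which brings iron in, went the other way. It measured 171, 130 and 276 CPM in total mRNA and 297, 276 and 582 CPM on polysomes (log2 fold change 0.99, SE 0.32, edgeR adjusted p = 0.0195), and the call was lost in 5 of 22 other settings, among them without pair 2.

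Over the 15 tested genes of iron handling, 4 were higher and 4 lower (26.7% each, against 17.3% and 22.9% of all features, median -0.49). Pcbp1, an RNA-binding protein that also delivers iron to ferritin, rose from 379, 290 and 215 CPM to 727, 1486 and 2334 CPM (log2 fold change 2.25, SE 0.43, edgeR adjusted p = 0.000503). Its polysome level was lowest in replicate 1 and highest in replicate 3, the order that Lars2 also had. The other 2 that were higher were Ireb2 (1.74), which encodes an iron regulatory protein, and Ncoa4 (1.13), a receptor for ferritin breakdown. The other 2 that were lower were Hfe (-2.02) and the metal transporter Slc11a1 (-0.99). Aco1 (0.57), the second iron regulatory protein, and the iron exporter Slc40a1 (-1.06) were not called. Without pair 2, 1 gene of the list was higher and 3 were lower, and without replicate 2 of total mRNA (unpaired) 2 were higher.

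Polyamine genes showed a split between the enzyme and its inhibitor. Odc1, the first enzyme of polyamine synthesis, measured 20.8, 33.7 and 37.9 CPM in total mRNA and 52.8, 69.0 and 79.5 CPM on polysomes (log2 fold change 1.15, SE 0.33, edgeR adjusted p = 0.0104). Oaz1, the antizyme that marks that enzyme for breakdown and is made by a programmed frameshift (chromosome 10, 80826656 to 80829290), fell from 2962, 2639 and 1575 CPM to 169.5, 104 and 115 CPM. Its groups were far apart (log2 fold change -4.19, SE 0.38, edgeR adjusted p = 4.51e-07). Of 13 tested genes 5 (38.5%) were lower and 3 (23.1%) higher, against 22.9% and 17.3% of all features (median -0.79). The other lower ones were Azin2 (-3.07), Eif5a, Oaz2 (-1.81) and Dohh (-1.58), and the other higher ones Azin1 (0.90) and Sms (0.87). Without pair 2 the counts were 0 higher and 2 lower, and without pair 1 the count higher was 1.

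In the cytoskeleton list 8 genes were higher and 8 lower of 30 (26.7% each, against 17.3% and 22.9% of all features). The median was -0.11, with pair medians of -0.89, -0.01 and 0.28. Thymosins, which hold actin monomers, were low: Tmsb4x measured 3127, 4349 and 5130 CPM in total mRNA and 186, 236 and 245 CPM on polysomes (log2 fold change -4.22, SE 0.38, edgeR adjusted p = 3.92e-07). Tmsb10 fell from 1063, 1345 and 1422 CPM to 55.9, 63.3 and 77.1 CPM (log2 fold change -4.29). Actb, which encodes beta-actin, stood at 20738, 19019 and 18226 CPM in total mRNA and at 16812, 28510.2 and 42105 CPM on polysomes, so the groups overlapped (log2 fold change 0.50, SE 0.40, edgeR adjusted p = 0.335). The 8 higher genes were chosen for naming after their values were seen and encode motor, crosslinking and adhesion proteins for the most part: Myh9 (2.12), Tln1 (1.99), Vcl (1.79), Lcp1 (1.79), Actr2 (1.61), Actn1 (1.35), Flna (1.11) and Vim (0.97). The count higher was 3 without pair 2.

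Tubb2b, a beta-tubulin (chromosome 13, 34127008 to 34130354), had the largest fall among the genes chosen by rule. It measured 94.3, 81.8 and 61.0 CPM in total mRNA and 0, 1.13 and 0.402 CPM on polysomes, from 3242 counts against 4. The mean level was 155-fold lower on polysomes (log2 fold change -7.77, SE 0.67, edgeR adjusted p = 3.14e-07). Its near copy Tubb2a was lower by less (-2.06), and Tubb5 (-0.10), Tuba1a (-0.13) and Tuba1b (-0.31) were not called. Reads may have been split between Tubb2a and Tubb2b.

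Further strong losses included messages with few counts on polysomes. Tmem134 measured 245, 233 and 143 CPM in total mRNA and 11.8, 5.66 and 3.21 CPM on polysomes (log2 fold change -4.98). Tspan17, a tetraspanin, fell from 37.0, 41.6 and 14.05 CPM to 1.44, 0.377 and 0 CPM (log2 fold change -5.47). Dusp28 held 615 counts in total mRNA and 3 on polysomes, a ratio of 59.7 with a 95% counting interval of 20.3 to 290. The interferon-induced gene Ifitm1 held 601 and 3, a ratio of 58.4 (19.9 to 284). Mettl23, Tmem42 and Dbndd2 were among the 12 named for the largest falls with 6, 3 and 5 polysome counts. The lower bounds for called genes without a polysome count, computed against 3 counts over the group, were at least 16.5-fold lower for Smim5, 14.1-fold for Rnd2, 11.8-fold for Bok, 8.64-fold for Rab23 and 7.57-fold for Prss16. These intervals and bounds cover counting error only.

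Stress response genes were led by Atf4 (chromosome 15, 80255184 to 80257545). It measured 134, 167 and 219 CPM in total mRNA and 21.6, 11.7 and 21.3 CPM on polysomes, with no overlap (log2 fold change -3.25, SE 0.37, edgeR adjusted p = 4.61e-06). Atf5, its relative with the same kind of upstream frames, fell from 37.0, 26.9 and 32.7 CPM to 7.35, 9.43 and 19.7 CPM (log2 fold change -1.52, SE 0.43, edgeR adjusted p = 0.008), a call that was lost without pair 1 or pair 2. Phgdh, the first enzyme of serine synthesis and a target of ATF4, was lower within each pair but overlapped between groups, with 143, 56.5 and 212 CPM against 37.3, 10.6 and 70.7 CPM (log2 fold change -1.96, SE 0.34). Without the pair as a block its call was lost. Of 26 tested genes 7 (26.9%, against 22.9% of all features) were lower (median -0.30). Only 2, Ibtk (1.28) and Mthfd2 (0.89), were higher, 7.69% against 17.3% of all features. The lower count was 2 without pair 2 and 3 without pair 1, and the higher count was 0 without either and 7 without pair 3. Unpaired, the lower count was 2 without replicate 1 and 3 without replicate 3 of total mRNA, and 4 without replicate 1 or 2 on polysomes.

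Messages of the IL4 response did not share 1 direction. Of 36 tested alternative activation genes 11 (30.6%) were higher and 4 (11.1%) lower, against 17.3% and 22.9% of all features. The median log2 fold change was 0.41. Retnla, a secreted product of alternatively activated macrophages (chromosome 16, 48842609 to 48844461), measured 4621, 7252 and 2759 CPM in total mRNA and 10909.6, 33271 and 22031 CPM on polysomes. All polysome libraries lay above all total libraries, by the least in replicate 1 (log2 fold change 2.15, SE 0.42, edgeR adjusted p = 0.000541). Mrc1, the mannose receptor CD206 (chromosome 2, 14229414 to 14332023), rose from 552, 457 and 809 CPM to 1826, 1721 and 2919 CPM (log2 fold change 1.83, SE 0.34, edgeR adjusted p = 0.000339). F13a1, a coagulation factor subunit made by macrophages, rose from 9.81, 11.3 and 13.5 CPM to 21.8, 56.6 and 50.6 CPM (log2 fold change 1.80, SE 0.39), a call lost without pair 2.

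Arg1, which turns arginine into ornithine (chromosome 10, 24915207 to 24927470), measured 405, 549 and 1310 CPM in total mRNA and 343, 400 and 1076 CPM on polysomes. The level differed more between the pairs than between the fractions, and replicate 3 was highest in both (log2 fold change -0.33, SE 0.32, edgeR adjusted p = 0.437). Chil3, a chitinase-like protein, stood at 30.1, 36.4 and 53.4 CPM in total mRNA and at 22.9, 19.98 and 3.62 CPM on polysomes (log2 fold change -1.48, SE 0.52, edgeR adjusted p = 0.0306), and replicate 3 was highest in total mRNA and lowest on polysomes. Ccl24, a chemokine for eosinophils, stood at 27.8, 40.5 and 8.59 CPM against 5.77, 19.2 and 2.41 CPM, so the groups overlapped (log2 fold change -1.70, SE 0.45, edgeR adjusted p = 0.00522). The Chil3 call was lost in 8 and the Ccl24 call in 9 of 22 other settings. The other 2 lower genes were Ccl17 (-2.14) and Fcrls (-1.65). Over the list, 3 genes were higher and 0 lower without pair 2, and the count lower was 2 without pair 1. Unpaired, the count higher was 4 without replicate 1 and 7 without replicate 3 of total mRNA, and 6, 4 and 7 without replicate 1, 2 or 3 on polysomes. The count lower was then 1 without replicate 1 of either fraction and 2 without replicate 2 of total mRNA or replicate 3 on polysomes.

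Of 25 genes of IL4 signalling and IL4-linked transcription factors 8 (32%) were higher and 4 (16%) lower (median 0.33). Of all features 17.3% were higher and 22.9% lower. Il4ra, the receptor chain that binds IL4 (chromosome 7, 125552271 to 125579474), measured 91.8, 45.5 and 53.1 CPM in total mRNA and 64.9, 35.1 and 77.1 CPM on polysomes. It was lower in pairs 1 and 2 and higher in pair 3, so no direction stood out (log2 fold change -0.11, SE 0.34, edgeR adjusted p = 0.813). Bcl6, a transcriptional repressor, rose from 219, 154 and 86.8 CPM to 382, 460.4 and 432 CPM (log2 fold change 1.56, SE 0.36, edgeR adjusted p = 0.00215). Batf3, a transcription factor that the dendritic cell marker list also holds, fell from 8.20, 21.4 and 9.68 CPM to 0.144, 0.754 and 1.21 CPM (log2 fold change -4.39, SE 0.70, edgeR adjusted p = 0.000109). The dendritic cell markers summed to 10.4 to 22.0 CPM in total mRNA and 0.865 to 3.02 CPM on polysomes, most of it Batf3 in total mRNA, and Flt3 and Clec9a were at 0. The kinase gene Akt1 was lower (129, 125 and 80.8 CPM against 38.6, 40.3 and 37.8 CPM, log2 fold change -1.49), as were the feedback inhibitors Socs3 (-2.06) and Socs1 (-1.38). Stat6 was read only inside a feature joined with Nab2 and is not given. Without pair 2 the counts were 0 higher and 1 lower, and the calls of Bcl6 and Akt1 were lost. The count lower was 2 without pair 1. Unpaired, the counts were 4 higher and 2 lower without replicate 1 of total mRNA, and 5 higher and 2 lower without replicate 2 on polysomes.

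Secreted factors leaned to the lower side. Of 30 tested cytokines and chemokines 11 (36.7%, against 22.9% of all features) were lower and 2, Ccl6 (1.51) and Spp1 (0.88), higher (median -0.88). Ccl9, a chemokine for monocytes, measured 2176, 2277 and 1438 CPM in total mRNA and 555, 417 and 159 CPM on polysomes (log2 fold change -2.53, SE 0.37, edgeR adjusted p = 4.46e-05). Pf4, a chemokine best known from platelets, fell from 897, 1254 and 568 CPM to 164, 349 and 243 CPM (log2 fold change -1.84, SE 0.35). Both fell in all pairs without overlap, while Gdf15 overlapped between the groups (-2.08) and lost its call in 9 of 21 other settings. The megakaryocyte markers, which would mark platelets, summed to at most 2.65 CPM in total mRNA, and the cell source of Pf4 was not tested. The count lower was 3 without pair 2, 7 without pair 1 and 17 without pair 3, and the count higher was 0 without pair 2. Unpaired, the count lower was 6 without replicate 1 of total mRNA and 7 without replicate 2 on polysomes.

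Of 46 surface receptors tested, 15 (32.6%) were lower and 8 (17.4%) higher, against 22.9% and 17.3% of all features (median -0.47). Tyrobp, a signalling adaptor of many receptors (chromosome 7, 30413782 to 30417582), measured 3234, 4799 and 1523 CPM in total mRNA and 169, 190.0 and 92.8 CPM on polysomes (log2 fold change -4.32, SE 0.38, edgeR adjusted p = 3.92e-07). Cd14, the co-receptor for lipopolysaccharide, fell from 2093, 973 and 587 CPM to 416, 206 and 118 CPM (log2 fold change -2.29, SE 0.34). In both groups Cd14 was highest in replicate 1 and lowest in replicate 3. Cd48 was lower as well (-2.72). The 8 higher receptors, named after their values were seen, were Lrp1 (2.28), Mrc1 (1.83), Itgam (1.79), Mertk (1.48), C3ar1 (1.29), Csf1r (1.08), Cx3cr1 (0.95) and Ptprc (0.94). Without pair 2, 6 were lower and 3 higher. Unpaired, 8 were lower and 3 higher without replicate 2 of total mRNA, and 5 higher without replicate 1 on polysomes.

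Among 33 lysosomal genes 11 were lower (33.3%, against 22.9% of all features) and 4 higher (12.1%, against 17.3%), with a median of -0.65. The protease gene Ctsh measured 48.1, 32.0 and 14.3 CPM in total mRNA and 10.8, 4.52 and 2.01 CPM on polysomes (log2 fold change -2.54, SE 0.44, edgeR adjusted p = 0.000224). Acp5, the tartrate-resistant phosphatase, fell from 139.5, 86.4 and 44.1 CPM to 20.8, 8.67 and 14.9 CPM (log2 fold change -2.54), and lysozyme Lyz1 was lower too (-1.90). Among the 4 higher genes were Tpp1 (1.63), Ctss (1.16) and Grn (1.04), and the count higher was 0 without pair 2, where 3 genes were lower. Unpaired, 1 or 2 genes were higher whichever library was left out, and 7 were lower without replicate 2 of total mRNA.

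Lipid synthesis genes were more often higher than lower. Of 32 genes of cholesterol and fatty acid synthesis 13 were higher (40.6%, against 17.3% of all features) and 5 lower (15.6%, against 22.9%), with a median of 0.42. Elovl5, an elongase of polyunsaturated fatty acids, rose from 152, 134 and 138 CPM to 409.7, 661 and 693 CPM (log2 fold change 2.02, SE 0.35, edgeR adjusted p = 0.000191). The 5 lower genes were Mvk (-2.38), Ebp (-2.12), Acat2 (-1.71), Mvd (-1.36) and Pmvk (-1.25), of which Mvk, Pmvk and Mvd follow each other in the mevalonate pathway. Mvk measured 57.3, 50.8 and 30.3 CPM in total mRNA and 10.5, 10.6 and 5.62 CPM on polysomes (SE 0.39, edgeR adjusted p = 0.000146). Ebp fell from 206, 171 and 144 CPM to 52.2, 41.9 and 28.1 CPM, without overlap. Among the higher genes, named after their values were seen, were Acaca (2.01), Acly (1.66) and Fasn (1.43). Leaving out pair 2 gave 3 higher and 2 lower, and unpaired without replicate 2 of total mRNA 7 were higher.

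Glycolysis genes were called about as often as all features (35.7% against 40.2%). Of 14 tested 4 were lower, namely Pfkl (-1.35), Slc16a3 (-1.19), Aldoa (-1.12) and Ldha (-0.88), and 1 was higher (median -0.54). That 1 was Hk2, an inducible hexokinase, which rose from 147, 125 and 74.1 CPM to 315, 347 and 229 CPM (log2 fold change 1.40, SE 0.33, edgeR adjusted p = 0.00232). No gene of the list was called without pair 2, while the count lower was 1 without pair 1 and 8 without pair 3. Unpaired, it was 1 without replicate 1 and 2 without replicate 2 of total mRNA.

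In the MNK, eIF4E and mTOR list 9 genes were higher and 7 lower of 28 (32.1% and 25%, against 17.3% and 22.9% of all features). The median of -0.21 had no stable sign: the pair medians were 0.50, -0.01 and 0.02, and with a filter at 10 CPM it was 0.32. Mknk2, a kinase that phosphorylates eIF4E, measured 121, 111 and 67.8 CPM in total mRNA and 39.5, 53.5 and 55.4 CPM on polysomes (log2 fold change -0.99, SE 0.35, edgeR adjusted p = 0.0296). The groups did not overlap, yet the call was lost in 8 of 22 other settings. Eif4ebp1, an inhibitor of eIF4E, fell from 287, 333 and 338 CPM to 41.9, 78.0 and 212 CPM (log2 fold change -1.85, SE 0.40, edgeR adjusted p = 0.00127), with the smallest fall in replicate 3. Akt1s1 (-1.94) and Rps6kb2 (-1.88), both around mTOR complex 1, were lower. The higher members, named after their values were seen, included Rictor (1.41), Larp1 (1.33), Mtor (1.29), Eif4g1 (1.21) and Rptor (0.96). Without pair 2, 1 gene was higher and 1 lower, and unpaired without replicate 2 of total mRNA 4 were higher.

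Immediate early genes and regulators of mRNA decay stood near the shares over all features (17.3% higher, 22.9% lower), with 6 higher and 6 lower of 33 (18.2% each, median 0.28, mean -0.01). Dusp4, a phosphatase of MAP kinases, rose from 83.3, 79.8 and 63.7 CPM to 170.4, 381 and 450 CPM (log2 fold change 2.04, SE 0.38, edgeR adjusted p = 0.000396). Zfp36l1, which binds AU-rich messages and speeds their decay, rose from 325, 434 and 308 CPM to 526, 1362 and 2228 CPM (log2 fold change 1.73, SE 0.40, edgeR adjusted p = 0.00232). Both rose least in pair 1 and most in pair 3, as Lars2 did. The lower genes included Ier5 (log2 fold change -1.58, SE 0.45, edgeR adjusted p = 0.00911), a call lost in 3 of 22 other settings, and Atf3 (-1.08). Leaving out pair 2 gave 1 higher and 0 lower, and without pair 1 the count lower was 3. Unpaired, 3 were higher without replicate 2 on polysomes, and 3 and 2 were lower without replicate 1 and 2 of total mRNA.

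Cell cycle genes matched the shares over all features, with 7 of 36 higher (19.4%) and 8 lower (22.2%, median 0.02). Birc5 (survivin) measured 158, 152 and 254 CPM in total mRNA and 50.5, 50.1 and 108 CPM on polysomes (log2 fold change -1.49, SE 0.33, edgeR adjusted p = 0.00147), and Cdk4 (-1.49) and the cyclin gene Ccnb2 (-1.54) were lower by a similar size. None of the list was called without pair 2. Unpaired, 2 and 1 were higher without replicate 1 and 2 of total mRNA and 4 without replicate 1 on polysomes, and 5 were lower without replicate 3 of total mRNA or replicate 2 on polysomes.

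**Figure D3:**
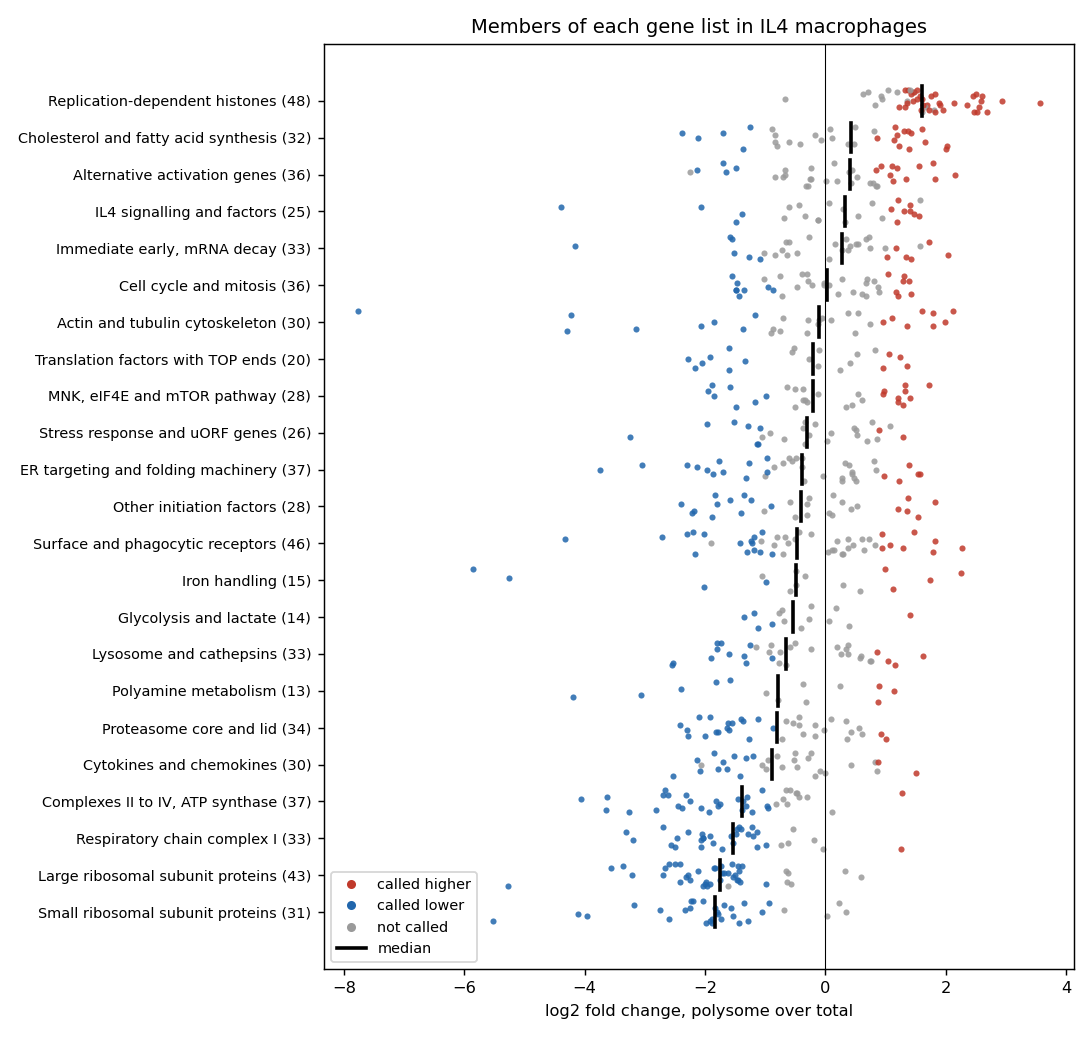
Log2 fold change of polysome over total mRNA for each tested member of 23 gene lists in the IL4 libraries, with the number tested in brackets and the list median as a black bar. Ribosomal protein and respiratory chain lists lie to the left of 0 almost in full, histones to the right, and most other lists spread over both sides.

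Replication-dependent histone messages, which end in a stem-loop in place of a poly(A) tail, were higher on polysomes, but not to the same extent in each pair. Of 48 tested genes 34 were higher (70.8%, against 17.3% of all features) and 0 lower, with a median log2 fold change of 1.61. The median was 0.08 in pair 1, 2.17 in pair 2 and 2.78 in pair 3. Summed over the list, histones stood at 3621, 1612 and 2543 CPM in total mRNA and at 3641, 8252 and 22576 CPM on polysomes. Replicate 1 on polysomes was thus level with total mRNA, and replicate 3 was the highest. Hist1h2ai measured 287, 36.1 and 222 CPM in total mRNA and 292, 647 and 2153 CPM on polysomes (log2 fold change 2.61, SE 0.80, edgeR adjusted p = 0.0298). Hist1h2ab measured 266, 37.4 and 211 CPM against 276, 619 and 1946 CPM (log2 fold change 2.55, SE 0.73, edgeR adjusted p = 0.0196). Of the 48, 23 were higher without overlap between the groups and the others overlapped. Of all features 23.1% were higher without overlap. The Lars2 share of the polysome libraries, 5.15, 11.98 and 18.1%, ran in the same order as the histone sums, and its part in the result was not tested. Without pair 2, 3 histones were called higher. Unpaired, 22 were higher without replicate 3 of total mRNA and 20 without replicate 2 or 3 on polysomes. The calls of Hist1h2ai and Hist1h2ab were lost without the pair as a block. Members of this family are near-identical, so reads cannot be given to single genes with certainty.

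**Figure D4:**
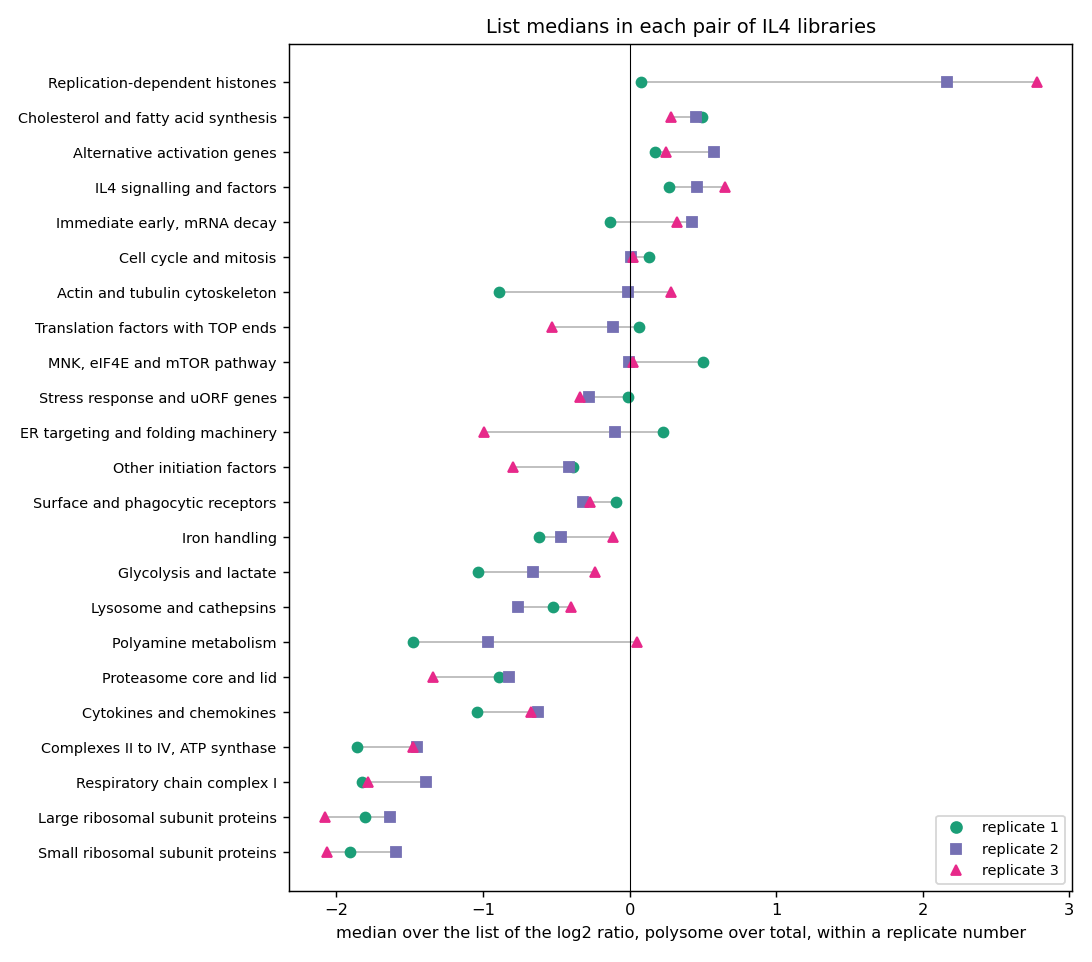
Median over each list of the log2 ratio of polysome over total mRNA within replicate 1, 2 and 3. The ribosomal protein and respiratory chain medians lie below -1.3 in all 3 pairs, while the histone median ranges from 0.08 to 2.78.

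The messages with the largest gains included several of RNA processing. Hnrnpa2b1, an RNA-binding protein of splicing and transport (chromosome 6, 51460434 to 51470048), measured 508, 542 and 498.6 CPM in total mRNA and 2328, 3888 and 6601 CPM on polysomes (log2 fold change 2.92, SE 0.39, edgeR adjusted p = 2.11e-05). Tra2b, a splicing regulator (chromosome 16, 22244552 to 22266005), rose from 292, 258 and 249 CPM to 873, 1729 and 3108 CPM (log2 fold change 2.66, SE 0.41, edgeR adjusted p = 7.9e-05). Snrpd3, a core protein of spliceosomal particles, rose from 121, 114 and 168 CPM to 530.5, 919 and 1212 CPM (log2 fold change 2.67), and Hnrnpul2 from 18.8, 28.3 and 28.6 CPM to 125, 156 and 364 CPM (log2 fold change 2.95). The total libraries were close together for Hnrnpa2b1 and Tra2b, while their polysome levels were lowest in replicate 1 and highest in replicate 3.

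The other genes with leading gains differed in how even the pairs were. Herc2, which encodes a ubiquitin ligase (chromosome 7, 56050124 to 56231800), rose from 26.0, 29.7 and 22.2 CPM to 170.0, 138 and 143 CPM (log2 fold change 2.54, SE 0.34, edgeR adjusted p = 1.97e-05). Kif13b, a kinesin motor, rose from 7.55, 6.62 and 4.64 CPM to 40.5, 46.0 and 37.4 CPM (log2 fold change 2.74, SE 0.40). Mib1, a ubiquitin ligase of Notch signalling, rose from 8.04, 10.0 and 11.9 CPM to 78.7, 58.8 and 43.0 CPM (log2 fold change 2.57, SE 0.40), with the smallest gain in pair 3. Xylt1 (2.57) and Soga1 (2.52) gained most in pair 3. Coding length was not analysed here.

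Lars2 itself (chromosome 9, 123366927 to 123462675) measured 13682, 10446 and 12378 CPM in total mRNA and 41143, 115798 and 199638 CPM on polysomes (log2 fold change 3.05, SE 0.51, edgeR adjusted p = 0.00015). The total libraries agreed closely, while the polysome libraries lay far apart, with replicate 1 lowest and replicate 3 highest. With DESeq2 the call was lost (adjusted p = 0.0639). The order of the polysome libraries that Lars2 had, 1 below 2 below 3, was shared by 31.6% of the features called higher, 11.1% of those called lower and 20.9% of those not called. The reverse order was held by 15.7%, 24.6% and 23.1%. Whether the reads counted for Lars2 came from its message was not tested.

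The same contrast in IFNG macrophages shares no library with IL4. In a fit over all 12 libraries with 6 preparation blocks, 1085 of 10421 features (10.4%) were higher on polysomes with IFNG and 1821 (17.5%) lower. Of the 1717 features higher in the IL4 fit, 823 were also called higher with IFNG and 0 lower. Of the 2266 lower, 1615 were also lower with IFNG and 0 higher. As shares of the 1067 and 1799 features that IFNG called among those tested in IL4, these make up most of the IFNG calls. The test of the difference itself, by edgeR, called 0 of 10421 features, and 228 (2.19%) had an unadjusted p under 0.05. DESeq2 called 3, Cxcl9, Hist1h3a and Tubb2b, so no feature was called by both tools in the fits over all replicates. A missed threshold does not show that the polarizations act alike: the SE of the difference was 0.47 for Herc2 and 0.97 for Tubb2b on the log2 scale.

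For the members of largest interest, Tubb2b measured 55.2 ± 85.5 CPM in total mRNA and 7.51 ± 10.1 CPM on polysomes with IFNG (SD, n = 3), with a log2 fold change of -2.33 against -7.68 with IL4 in the same fit. The difference was -5.34 (SE 0.97, edgeR adjusted p = 0.497). Atf4 stood at 257 ± 72.8 and 82.5 ± 18.7 CPM with IFNG (SD, n = 3), a log2 fold change of -1.63, and the difference of -1.57 (SE 0.50) had an edgeR adjusted p of 1. Fth1 (-5.56 with IFNG), Ftl1 (-5.11), Rpl41 (-4.46), Oaz1 (-4.36), Tmsb4x (-4.31) and Herc2 (2.64) had IFNG fold changes within 1 log2 unit of those in the IL4 fit. Tra2b had 1.07 with IFNG and did not pass the threshold there (edgeR adjusted p = 0.0730), and its difference was 1.65 (SE 0.60, adjusted p = 1). Retnla and Arg1 were at or under 0.902 CPM on average with IFNG in both fractions, so their IFNG fold changes are not read.

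Among the lists, the ribosomal protein medians with IFNG were -2.36 for the large and -2.53 for the small subunit in the 12-library fit, and 38 and 25 members were lower. Complex I had a median of -2.45 with IFNG and 26 lower members, and complexes II to IV with the ATP synthase -2.13 and 30. For histones the IFNG median was 0.08, with 0 of 48 higher and 1 lower. Whether the list values differ between the polarizations was tested only gene by gene. For no histone did the edgeR difference pass the adjusted threshold in the main fit. Without replicate 3 it passed for Hist1h3a, Hist1h3c and Hist1h3e, and DESeq2 called Hist1h3a.

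**Figure D5:**
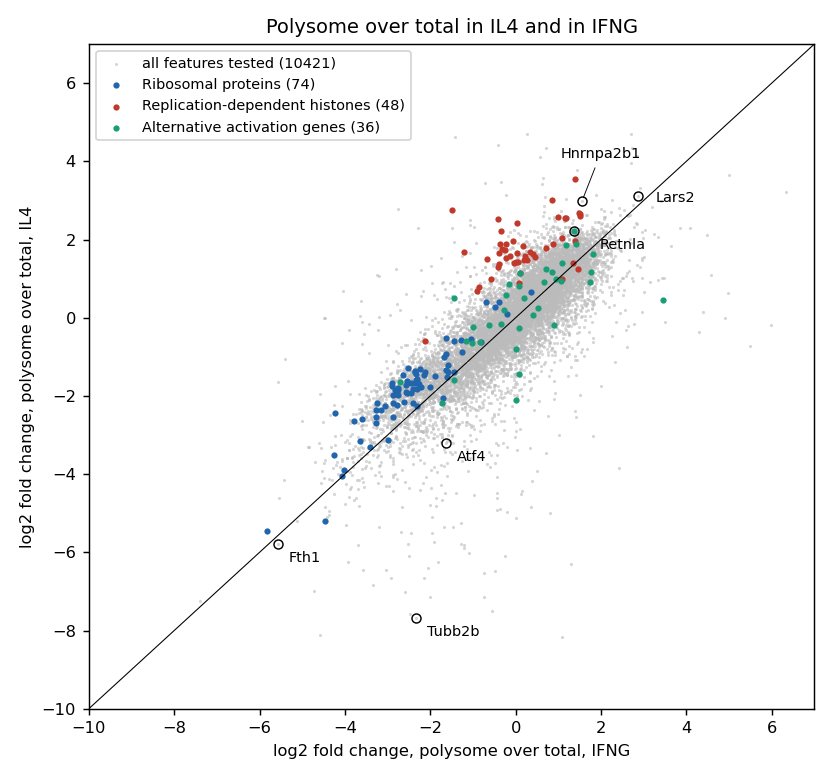
Log2 fold change of polysome over total mRNA with IL4 (vertical axis) against that with IFNG (horizontal axis), from the fit over 12 libraries, 1 point per feature, with the line of equal values. Ribosomal protein genes lie at negative values on both axes, most histones lie above the line, and Tubb2b lies far below it.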

How the data were processed

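Each deposited file gives whole-number counts per gene symbol, which the authors left unnormalized, per the file headers. It also gives log2 values scaled by TMM, per the file headers, which served for 1 alternative. The submitters' processing notes list HISAT2, HISAT and limma, with mm10 as the build, and no version. Counting tool, strand setting and gene models: not given in the sources used here. Overlapping and antisense genes therefore cannot be told apart by their reads.

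The 6 IL4 libraries were grouped by their labels. Counts were filtered with filterByExpr, scaled with TMM and fitted in edgeR 4.0.16 (R 4.3.3) by robust quasi-likelihood with replicate number and fraction as terms, with Benjamini-Hochberg adjustment at 0.05 over 9898 features. The difference between IL4 and IFNG was tested over 12 libraries and 10421 features with 6 preparation blocks. The pairing comes from the labels' protocols, by which both fractions of a number come from 1 cell population. DESeq2 1.42.0, limma 3.58.1, other filters and scalings, thinning and left-out pairs or libraries were alternatives. The fits were tested on simulated data.

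The members and lists were chosen with earlier results of these data known. Named genes were the 12 with the largest gain and the 12 with the largest loss among called features of at least 10 CPM in 1 group, without overlap and moving alike in 3 pairs, leaving out predicted (22 and 85) and joined features. Up to 3 called members per list and 17 fixed genes followed, 16 of them tested. Genes named beside a count of 5 or fewer, or as said in the text, were chosen after their values were seen. Of 19549 features, 830 join several symbols and held 7.57 to 10.0% of the IL4 counts, and 17995 matched RefSeq symbols of GRCm38.p6, from which positions come. Of 42 listed noncoding transcripts 1, Ptprv, was tested and not called (log2 fold change -2.07, adjusted p = 0.127). The values of a few list members are not reported here.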

Additional observations from a re-analysis of the deposited data

How the results depend on the processing

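In 22 other settings of the IL4 comparison no feature was called in the opposite direction to the one reported. Without replicate 1, 2 or 3 the counts were 277 to 2282 higher and 882 to 2797 lower, with the lowest values without pair 2. With 1 library left out and no pairing they were 1074 to 1668 higher and 1810 to 2311 lower, lowest without replicate 2 of total mRNA. Scaling by library totals alone gave 1231 higher and 1420 lower and moved the median of all features to 0.15 (log2). The cause of these drops was not tested; fewer samples enter the fits that leave libraries out. The other 12 settings gave 1375 to 1966 higher and 1662 to 2434 lower. Without the replicate block 1775 were higher and 2293 lower, and 3830 features were called by both fits.

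Deviations from the group means correlated at 0.01, 0.42 and 0.04 between same-numbered libraries and at -0.20 to 0.10 between the others (6750 features), so the data themselves show pairing for number 2 only. The block changed the calls of Phgdh, Ccl24, Hist1h2ai, Hist1h2ab and Hist1h4a among the named genes.

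The log2 fold change of Il4ra turned positive without replicate 1 or 2 (0.0876 and 0.0750, against -0.449 without replicate 3), by library totals (0.0446), and unpaired without total replicate 1 (0.256) or polysome replicate 2 (0.138). The log2 fold change of Arg1 turned positive unpaired without total replicate 3 (0.339). Neither was called in any setting. Ptprv passed the threshold in 1 setting. Over the named genes 1976 of the refits kept direction and side of the threshold, and 108 kept direction but missed it.

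For the difference between IL4 and IFNG, DESeq2 called 2 higher and 1 lower (296 at an unadjusted p under 0.05), and leaving out replicate 3 gave 3 higher and 2 lower (Hist1h3a, Hist1h3c, Hist1h3e, Ifitm1, Tubb2b), against 0 to 3 and 0 to 2 over the left-out replicates. The fit without the block and the filter at 10 CPM called 0 (176 and 114 unadjusted). The planned classes by protein length and N-terminal hydrophobicity were not run. The polysome libraries are the shallower ones: 3 counts stand for 0.432 CPM in replicate 1 and 1.20 CPM in replicate 3. The medians of the cytoskeleton, cell cycle, immediate early, stress response, mTOR and TOP factor lists changed sign in at least 1 setting.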

Other observations

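Gene families defined by their symbols, chosen after values were seen, gave further groups in the IL4 comparison. Mitochondrial ribosomal proteins followed the cytosolic ones: of 69 tested 46 were lower and 3 higher on polysomes, with a median log2 fold change of -1.51 and pair medians of -1.60, -1.52 and -1.74. Small integral membrane proteins of the Smim series (0 higher and 6 lower of 12, median -1.72) and Tmem proteins (9 higher and 49 lower of 130, median -0.81) lay on the same side. Rab GTPases, regulators of vesicle traffic, had 12 lower and 4 higher of 37 (median -0.72).

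On the other side, 17 of 43 DEAD box and DEAH box helicases were higher and 4 lower (median 0.88), with pair medians of 0.93, 0.90 and 0.72. Of 20 hnRNP genes 10 were higher and 0 lower (median 0.98), of 23 kinesins 8 were higher and 0 lower (median 0.79), and of 36 ubiquitin-specific proteases 8 were higher, with Usp33 at the top (1.88), and 1, Usp5 (-0.89), lower (median 0.64). SR splicing factors had 4 higher and 3 lower of 12 (median 0.04), although Tra2b was at 2.66. Zfp zinc finger genes (27 higher and 22 lower of 222, median 0.07) and solute carriers (23 higher and 25 lower of 145, median -0.07) stood at the median of all features. Over all features 17.3% were higher and 22.9% lower.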
